A study of Rattus norvegicus with 49 samples.

Results

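Cartilage owes its stiffness and its hold on water to a matrix that few other tissues make, and 10 genes of that matrix were followed through rat thyroids: Col2a1, Col9a1, Col9a2, Col11a2, Acan, Chad, Comp, Matn1, Matn3 and Cytl1. A probe was assigned to a gene when the RefSeq accession printed for it in the array file mapped to that gene. By this rule 9 of the 10 genes had a probe, with 13 probes of 30367 on the array and 9 of 15154 gene symbols, and Matn3 had no matched probe. Col9a1 was read by 3 probes, Col11a2 and Cytl1 by 2 each and the other 6 genes by 1 each, and unless another probe is named, values are from the brightest probe of a gene by its mean over the 49 arrays.

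The arrays came from thyroids of 49 male Sprague Dawley rats, 1 animal on each array. Young rats received a single injection of 131I, the radioactive iodine that the thyroid concentrates, at 5 weeks of age. At 9 months after injection, when they were 10 months old, the activities 0.5, 5, 50 and 500 kBq were represented by 4, 3, 4 and 4 arrays. Young rats given 50 kBq were also examined at 3 and 6 months after injection, at 4 and 7 months of age, with 4 arrays each. Adult rats were injected with 50 kBq at 17 weeks of age and examined at 3, 6 and 9 months after injection, at 7, 10 and 13 months of age, with 4 arrays each. Controls were untreated rats of 4, 7, 10 and 13 months, with 4, 3, 4 and 3 arrays. Because the controls were untreated, the injection and the 131I it carried cannot be told apart.

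In cartilage, type II collagen, the product of Col2a1, forms thin fibrils together with type XI collagen, and type IX collagen sits on their surface. Aggrecan, the product of Acan, fills the space between fibrils with charged sugar chains that draw in water, while matrilins, chondroadherin and cartilage oligomeric matrix protein link the fibrils, the proteoglycans and the cells. The thyroid itself makes no cartilage, but it lies against the thyroid and cricoid cartilages of the larynx and the rings of the trachea.

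Each signal is given as log2 of the background-subtracted spot intensity minus the 75th percentile of that array, so that 0 is a spot as bright as the upper quartile of its own array and a difference of 1 is a 2-fold difference. Levels of different probes are not compared with each other. A spot was called well above background when the scanner software marked it so, and a probe was tested when this held on at least 3 of the 49 arrays, as it did for all 13 probes here and for 25312 probes in all. Differences were tested with limma in 1 fit over the 49 arrays, with Benjamini-Hochberg adjustment over the 25312 probes, and a probe was called at an adjusted p below 0.01 and a fold above 1.5. For a single gene, the exact two-sided permutation test over the arrays of 2 groups is also given, and its smallest possible p is 0.0286 with 4 arrays against 4 or 3 against 4.

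There were 3 arrays that stood apart from the rest. In replicate 2 of the young rats given 50 kBq and examined at 3 months, 43.1% of the spots were well above background and the 75th percentile signal was 61.0, against 69.2 to 82.5% and 783 to 4172 on the other arrays. Only 2 cartilage matrix genes were well above background on it, and its values for the others are not well above its background. Replicate 3 of the same group and replicate 2 of the controls of 7 months had low thyrocyte markers: 11 of 13 lay below all 47 other arrays, with the thyroglobulin gene Tg at 0.14 and -0.69 against at least 6.41 elsewhere and Pax8 at -8.14 and -6.12 against at least -0.09. Main results that rest on these 3 arrays are given with and without them, unless the text says that this was not done.

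Promoter sequences from RefSeq (build GRCr8, 250 bases before to 50 after the gene's start) were held for 8 of the 10 genes, all but Col2a1 and Matn1. Those of 4 genes with very different behaviour on the arrays are shown: Acan and Chad, which varied most within groups, Comp, which followed the other cartilage genes over the arrays, and Col11a2, which did so least. Capitals mark GGGCGG, the GC box bound by Sp factors, and TATAAA, the TATA box, on either strand, and adjoining or overlapping copies of GGGCGG run together. Each sequence is read 5′ to 3′ along the gene. Acan lies on the plus strand at chr1:142390701-142391000, Chad on the plus strand at chr10:80008795-80009094, Comp on the minus strand at chr16:19089499-19089798 and Col11a2 on the minus strand at chr20:4817599-4817898.
Acan: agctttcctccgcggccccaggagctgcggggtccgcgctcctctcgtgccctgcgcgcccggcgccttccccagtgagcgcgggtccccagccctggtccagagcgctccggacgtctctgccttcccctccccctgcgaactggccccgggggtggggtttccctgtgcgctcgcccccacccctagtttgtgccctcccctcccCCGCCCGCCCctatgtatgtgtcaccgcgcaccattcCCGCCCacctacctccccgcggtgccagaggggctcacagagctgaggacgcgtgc
Chad: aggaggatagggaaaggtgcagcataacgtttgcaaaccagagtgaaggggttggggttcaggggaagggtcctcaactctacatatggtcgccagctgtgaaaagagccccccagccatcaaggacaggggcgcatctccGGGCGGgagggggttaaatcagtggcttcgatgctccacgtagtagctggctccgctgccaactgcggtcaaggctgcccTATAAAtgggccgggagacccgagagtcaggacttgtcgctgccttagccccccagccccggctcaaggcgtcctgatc
Comp: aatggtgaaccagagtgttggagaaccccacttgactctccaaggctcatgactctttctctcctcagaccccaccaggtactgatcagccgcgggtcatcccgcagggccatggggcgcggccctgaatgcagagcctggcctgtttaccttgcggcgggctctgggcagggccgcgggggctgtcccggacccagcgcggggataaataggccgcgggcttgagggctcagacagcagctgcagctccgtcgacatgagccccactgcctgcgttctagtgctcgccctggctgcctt
Col11a2: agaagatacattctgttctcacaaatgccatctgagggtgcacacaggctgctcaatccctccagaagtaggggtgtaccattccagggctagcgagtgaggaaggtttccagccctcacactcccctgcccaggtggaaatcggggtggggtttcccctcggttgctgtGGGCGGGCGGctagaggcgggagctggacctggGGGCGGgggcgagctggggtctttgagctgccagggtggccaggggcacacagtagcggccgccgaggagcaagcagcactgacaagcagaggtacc

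GGGCGG was present in 4 of the 8 promoters (Acan, Matn3, Chad and Col11a2), against 33.1% of 33469 promoters of the same length. TATAAA was present in 1 of 8, that of Chad, against 14.2%. ACAAAG and ACAATG, the core letters of the sites read by Sox factors, were in 0 of 8, against 29.1% of all promoters with at least 1 of them, which says only that these letters are not in this window.

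Across the 49 arrays, 7 of the 9 genes tended to be high on the same arrays. The highest pairwise correlation was that of Col2a1 and Chad (r = 0.947 over 49 arrays), followed closely by Acan and Matn1 (r = 0.934). With the array of few spots above background left out, the correlation of each gene with the mean of the remaining 8 was 0.955 for Col2a1, 0.948 for Matn1, 0.934 for Chad, 0.910 for Acan, 0.851 for Comp, 0.828 for Col9a2 and 0.792 for Cytl1. Spearman's rho was lower, from 0.446 for Cytl1 to 0.724 for Col2a1 among these 7 genes. Col9a1 followed less closely on its brightest probe (r = 0.546) than on its other 2 (0.724 and 0.897), and Col11a2 was low on both of its probes (0.159 and 0.244). Col9a1 and Col11a2 formed the lowest pair (r = -0.032). The values of 1 array come from 1 RNA, so these correlations are descriptions over arrays that share their labelling and scaling.

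**Figure D1:**
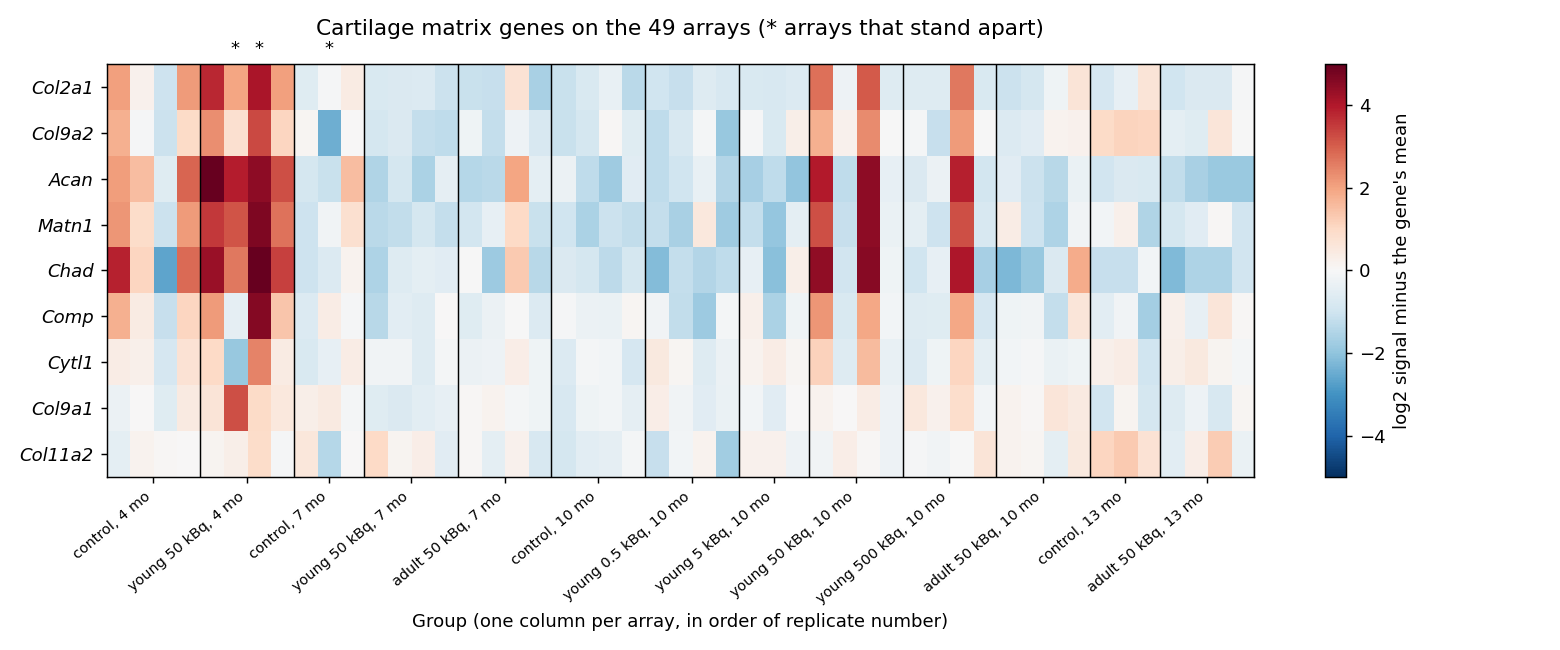
Log2 signal of the 9 cartilage matrix genes, each centred on its mean over the 49 arrays, with 1 column per array the arrays grouped by exposure and age, and asterisks over the 3 arrays that stood apart. Most columns are low in Col2a1, Acan, Matn1, Chad and Comp at once, and the high columns lie among the young rats given 50 kBq at 4 and 10 months of age, the controls of 4 months and 1 array at 500 kBq.

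Chad, which encodes chondroadherin, a leucine-rich protein that binds cells and collagen, spanned the widest range, from -6.94 in a control of 4 months to 1.96 in a rat of the same age given 50 kBq, a span of 8.89 on the log2 scale. The high end was on replicate 3 of its group, an array with low thyrocyte markers, and the low end was not well above background. The spread of Chad within groups was larger than that of 97.8% of all tested probes. The same percentile was 94.7 for Acan, 93.0 for Matn1, 85.6 for Col2a1 and 85.6 for Comp, but 46.2 for Col9a1 and 51.8 for Col11a2. The aggrecan and matrilin-1 probes were well above background on few arrays, Acan on 10 of 49 and Matn1 on 14. The 10 arrays that showed Acan all showed Matn1, the matrilin of tracheal and other non-articular cartilage: replicates 1, 3 and 4 of the young rats given 50 kBq at 4 months of age, replicates 1, 2 and 4 of the controls of 4 months, replicates 1 and 3 of the young rats given 50 kBq at 10 months, replicate 3 at 500 kBq, and replicate 3 of the adults at 7 months. A dimmer Col9a1 probe, A_43_P11136, was well above background on 7 arrays, all of them among these 10.

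To order the groups, the 9 genes were each centred on their mean over the 49 arrays and averaged on each array. This mean level was 2.31 ± 0.93 (SD, n = 4) in young rats given 50 kBq at 4 months of age, 0.98 ± 1.60 (n = 4) in young rats given 50 kBq at 10 months, 0.62 ± 1.17 (n = 4) in controls of 4 months and 0.19 ± 1.34 (n = 4) at 500 kBq. In the first of these groups replicates 1 to 4 were at 2.55, 1.53, 3.53 and 1.64, of which replicates 2 and 3 were the arrays that stood apart. The other 9 groups lay between -0.81 and -0.19. Below the first group, no 2 neighbours in this order differed by more than the pooled SD within groups, 0.80. The SD was 0.06 in controls of 10 months and 0.09 in young rats given 50 kBq at 7 months, so the groups differed in spread as well as in mean.

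**Figure D2:**
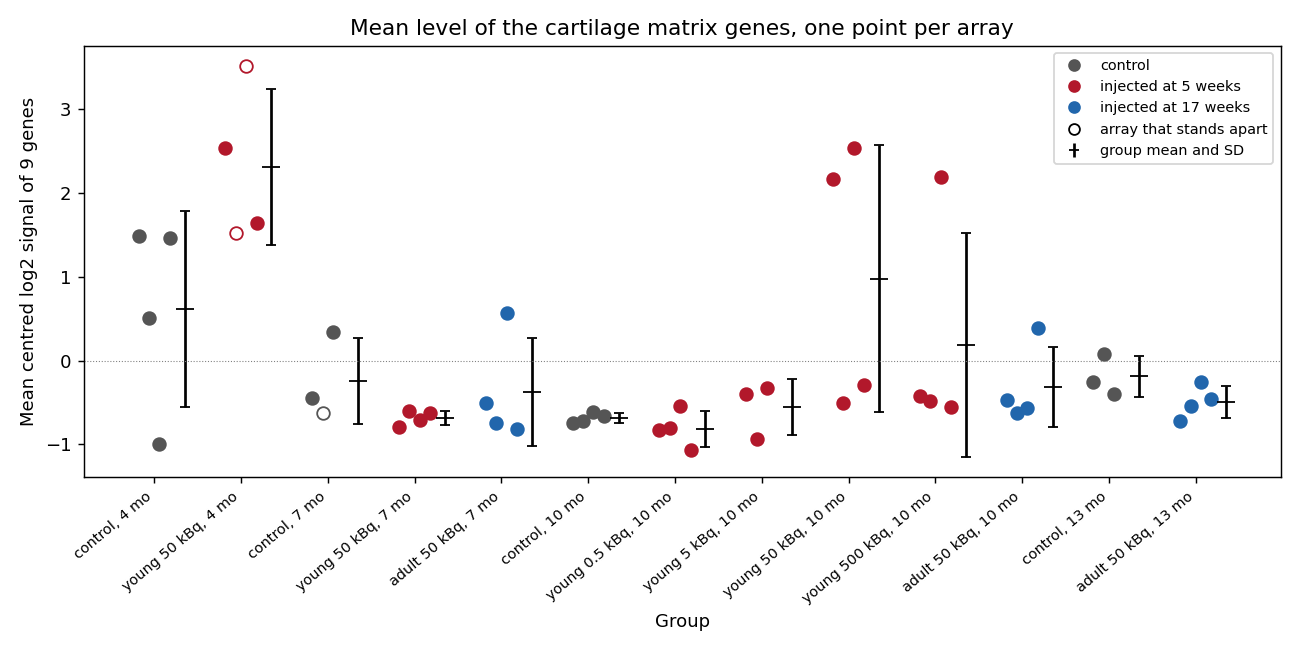
Mean level of the 9 cartilage matrix genes (log2, centred on the mean over the 49 arrays) in every array, by group, with the mean and SD of each group as bars and open circles for the 3 arrays that stood apart. The controls of 10 months lie between -0.74 and -0.62, while the young rats given 50 kBq of the same age split into 2 arrays above 2 and 2 arrays below 0.

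In bulk tissue a higher signal from more cells of a type and from more RNA per cell cannot be told apart, and this holds for each comparison below. At 10 months of age, 9 months after injection, the 4 activities given to young rats were compared with the same 4 controls, and the 4 comparisons share those controls. None of the 9 genes was called at any activity, and 0, 3, 3 and 0 of the 25312 probes were called at 0.5, 5, 50 and 500 kBq (0, 0.0119, 0.0119 and 0%). At 50 kBq all 9 genes had a higher mean than the controls, with a median log2 difference of 1.72 (range 0.47 to 2.90) against a median of 0.04 over all tested probes. At 500 kBq all 9 were also above 0 with a median of 0.85 (0.11 to 1.46). At 5 kBq 7 of 9 were above 0 (median 0.19, -0.67 to 0.65), and Cytl1 was above every control (exact permutation p = 0.0857), as were 8.53% of all probes. At 0.5 kBq 3 of 9 were above 0 (median -0.05, -0.69 to 0.35). Before adjustment, limma gave p below 0.05 for 5 genes at 50 kBq, 1 at 500 kBq and 0 at 0.5 and 5 kBq. Over all probes this share was 0.936% in the higher direction at 50 kBq and 0.936% at 500 kBq, and 0.948% and 1.81% in either direction at 0.5 and 5 kBq.

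**Figure D3:**
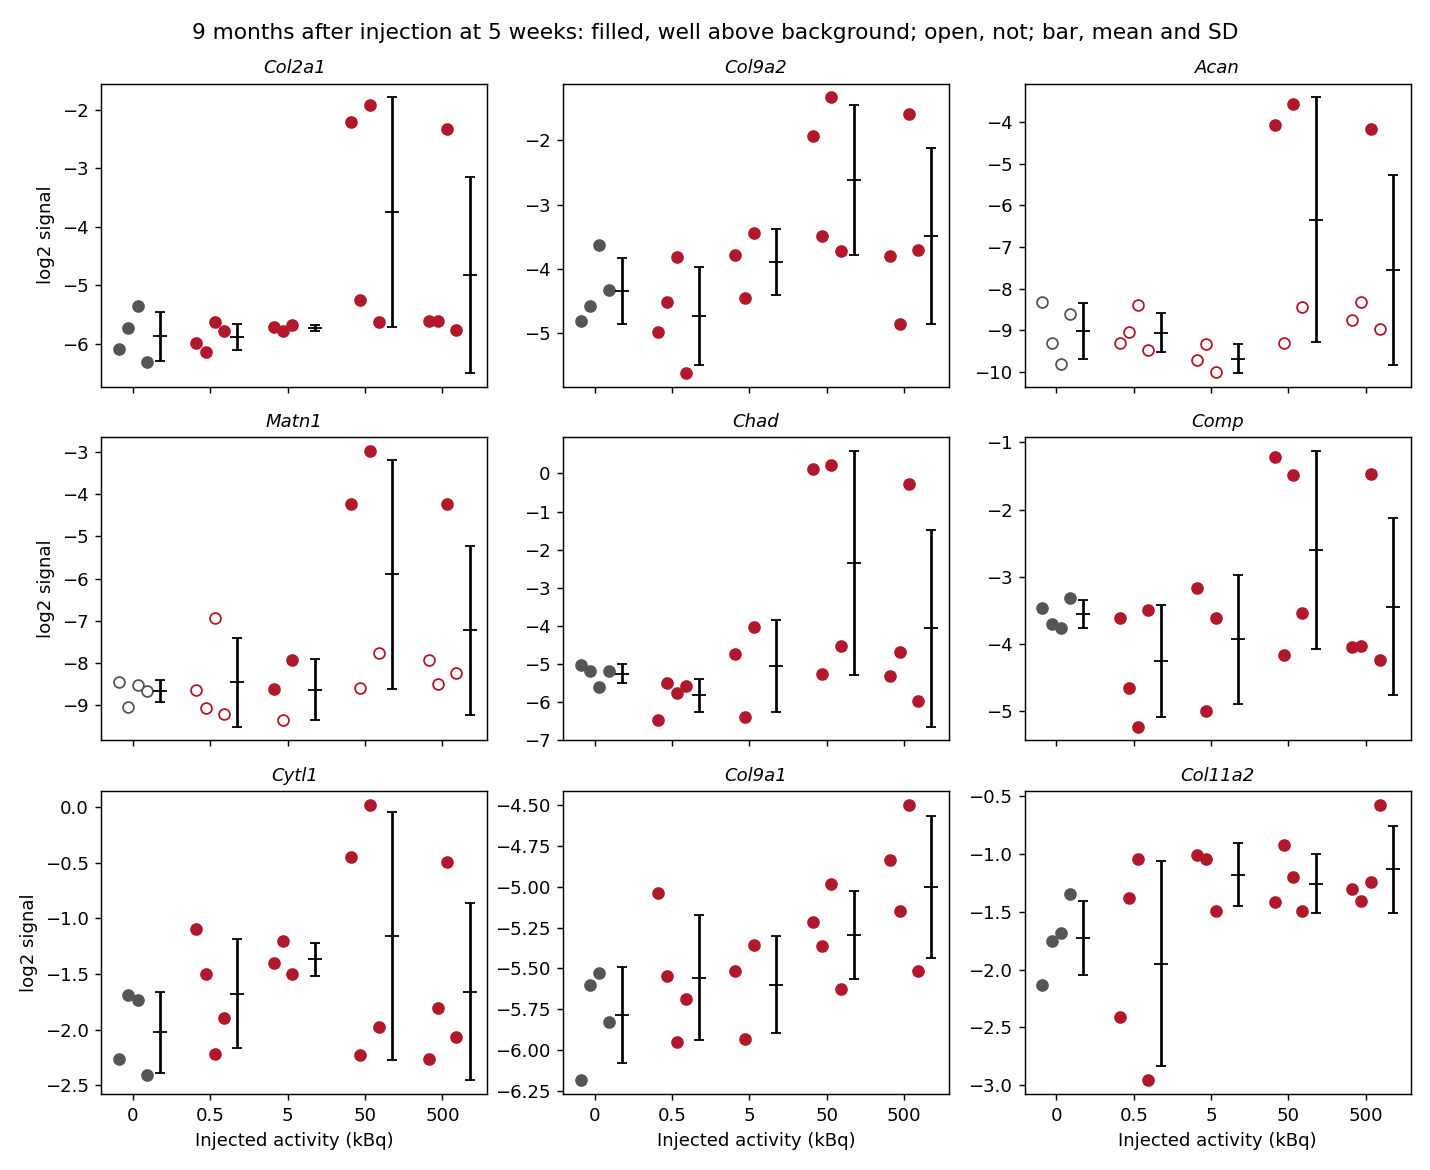
Log2 signal of each of the 9 cartilage matrix genes at 10 months of age in controls and in young rats given 0.5, 5, 50 or 500 kBq of 131I, 1 point per array (filled where well above background, open where not), with the mean and SD of each group as bars. Replicates 1 and 3 at 50 kBq and replicate 3 at 500 kBq stand above the other points for Col2a1, Acan, Chad, Comp and Matn1. The remaining arrays at 50 and 500 kBq lie nearer to the controls for these genes.

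Among the fibrillar collagens, Col2a1 was at -2.21, -5.25, -1.92 and -5.63 in replicates 1 to 4 at 50 kBq and at -6.09, -5.74, -5.36 and -6.31 in the controls. Replicates 1 and 3 were far above every control, replicate 2 was just above the highest and replicate 4 lay within the control range. The log2 difference was 2.12 ± 0.71 (SE; limma with Benjamini-Hochberg, adjusted p = 1; exact permutation p = 0.0571). Col11a2, a chain of type XI collagen that helps to set fibril width, was at -1.42, -0.92, -1.20 and -1.49 against -2.13, -1.75, -1.68 and -1.34, with a log2 difference of 0.47 ± 0.39 (SE, adjusted p = 1 with limma). Its values did not separate replicates 1 and 3 from the others.

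For the type IX chains, Col9a2 was at -1.94, -3.49, -1.33 and -3.72 at 50 kBq and at -4.81, -4.58, -3.63 and -4.33 in the controls. The same 2 exposed arrays led, and 3 of 4 exposed arrays exceeded every control. The log2 difference was 1.72 ± 0.61 (SE; adjusted p = 1 with limma; exact permutation p = 0.0571). Col9a1 was at -5.21, -5.36, -4.98 and -5.63 against -6.19, -5.60, -5.53 and -5.83, with a log2 difference of 0.49 ± 0.35 (SE, adjusted p = 1 with limma) and no gap between replicates 1 and 3 and the others. A second Col9a1 probe, A_64_P074649, did show that gap, at -5.10, -7.52, -4.45 and -6.95, and gave a log2 difference of 1.53 ± 0.74 (SE, adjusted p = 1 with limma).

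Aggrecan and matrilin-1 were measured in only 2 of the 4 exposed arrays and in no control. Acan was at -4.08, -9.31, -3.57 and -8.43 at 50 kBq and at -8.32, -9.30, -9.80 and -8.61 in the controls. Since no control was well above background, the difference has only a bound: the exposed mean was at least 5.99-fold higher than the control floor, which is the mean over control arrays of the lowest signal among well-measured probes or the probe's own value if higher (limma adjusted p = 1; exact permutation p = 0.200). Matn1 was at -4.22, -8.60, -2.98 and -7.77 against -8.45, -9.04, -8.52 and -8.66, at least 6.84-fold higher by the same bound (limma adjusted p = 1; exact permutation p = 0.0857). For both genes replicates 1 and 3 were more than 3 log2 units above the other exposed arrays. In these bounds and those below, arrays not well above background enter the mean of the brighter group at their own values.

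Among the bridging proteins, Chad was at 0.12, -5.26, 0.23 and -4.54 at 50 kBq and at -5.04, -5.19, -5.61 and -5.20 in the controls. The 4 controls lay within a narrow band, replicates 1 and 3 were well above it, and replicate 2 was inside it. The log2 difference was 2.90 ± 1.15 (SE; adjusted p = 1 with limma; exact permutation p = 0.114). Comp, which encodes cartilage oligomeric matrix protein and is also made in tendon, was at -1.22, -4.17, -1.49 and -3.54 against -3.47, -3.70, -3.76 and -3.31, a log2 difference of 0.96 ± 0.71 (SE; adjusted p = 1 with limma; exact permutation p = 0.371). Replicate 2 was below every control and replicate 4 was within their range.

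Cytl1, a small secreted protein made by chondrocytes, was at -0.45, -2.23, 0.02 and -1.98 at 50 kBq and at -2.26, -1.69, -1.74 and -2.41 in the controls, a log2 difference of 0.86 ± 0.52 (SE; adjusted p = 1 with limma; exact permutation p = 0.286). Its other probe, A_44_P898195, was at -2.02, -4.72, -1.87 and -4.33 with a log2 difference of 1.32 ± 0.50 (SE, adjusted p = 1 with limma). On both probes replicates 1 and 3 were the high arrays. The second Col11a2 probe, A_64_P106598, was higher on every exposed array than on every control (log2 difference 0.71 ± 0.35, SE; adjusted p = 1 with limma; exact permutation p = 0.0286), which held for 2.73% of all tested probes.

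**Figure D4:**
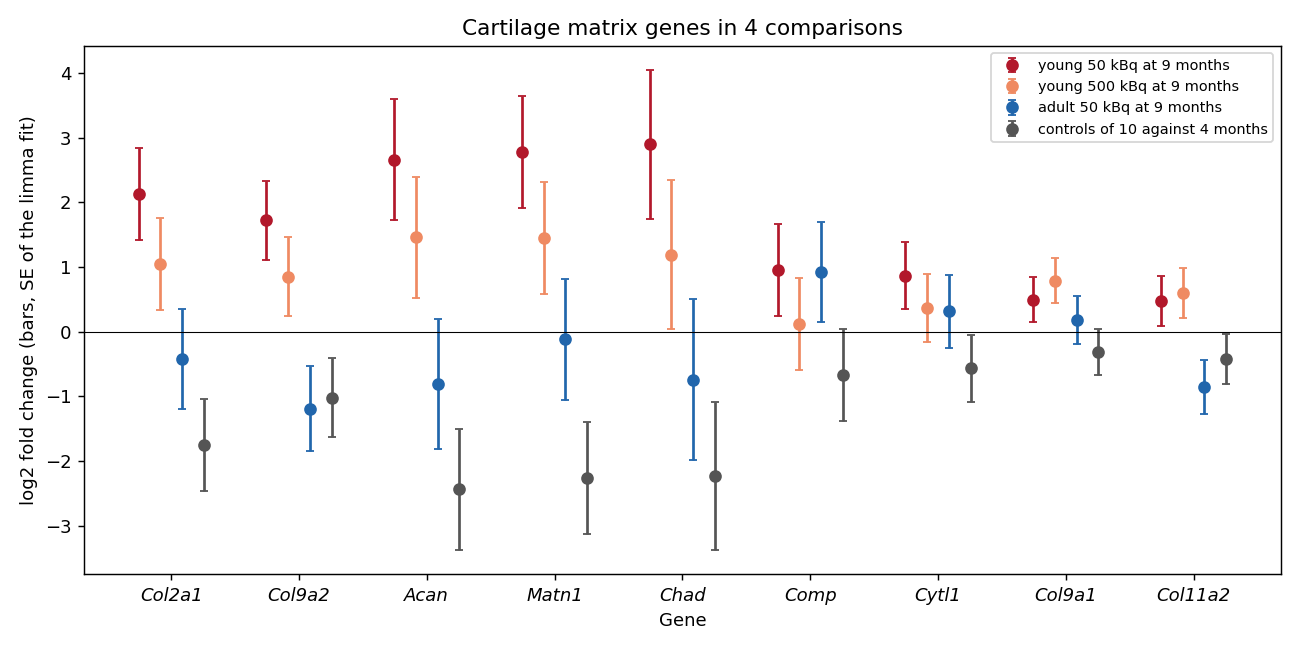
Log2 difference of each of the 9 cartilage matrix genes, with the standard error of the limma fit as bars, in 4 comparisons: young rats 9 months after 50 or 500 kBq and adult rats 9 months after 50 kBq, each against controls of the same age, and controls of 10 against 4 months. The 9 values of young rats after 50 kBq lie above 0 (0.47 to 2.90) and those of controls of 10 against 4 months below 0 (-2.44 to -0.32). The fitted values of Acan and Matn1 depend on the background signal of the dim group, for which the text gives bounds.

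Replicates 1 and 3 led the 50 kBq difference at 10 months. The median over the 9 genes was 1.29 without replicate 3, 1.49 without replicate 1, and 2.09 at most without any 1 array. The arrays of these groups were scanned on several days and slides: the median was 1.75 within the first scan day (2 exposed against 3 control arrays), 1.22 within the third (2 against 1) and 0.39 on the 1 slide that held both groups (1 against 2). With the slide as a block it was 1.59, and with the scan date as a block 1.81. With the normexp background correction it was 0.79, and it was 0.96 over the 7 genes that passed a stricter filter, with every array of some group well above background.

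At 500 kBq the higher means of Col2a1, Chad, Comp, Acan and Matn1 came largely from replicate 3. Col2a1 was at -5.62, -5.61, -2.33 and -5.76, Chad at -5.32, -4.70, -0.28 and -5.98, and Comp at -4.04, -4.03, -1.47 and -4.24. For each of these genes 1 array stood alone and the other 3 lay together. Acan (-8.74, -8.32, -4.16 and -8.97) and Matn1 (-7.93, -8.49, -4.24 and -8.25) were well above background on that array only, with bounds of at least 2.61-fold and 2.71-fold higher than in controls (limma adjusted p = 1 for both). Within the 1 scan day that held both groups (1 array against 1) the median was 0.03. Without replicate 3 the median log2 difference over the 9 genes dropped from 0.85 to 0.22. On its brightest probe Col9a1 behaved otherwise: at -4.84, -5.15, -4.50 and -5.52 it was above every control on all 4 arrays, on replicate 4 by a narrow margin (log2 difference 0.79 ± 0.35, SE; adjusted p = 1 with limma; exact permutation p = 0.0286), as were 2.33% of all tested probes. This held for its brightest probe only: on A_64_P074649 and A_43_P11136, 1 of 4 exposed arrays was above every control (exact permutation p = 0.486 and 0.657). Col11a2 did not rest on 1 array either, with 3 of 4 exposed arrays above every control on both probes. Its log2 differences were 0.596 and 0.685 (exact permutation p = 0.0571 for each). Matn1 also had 3 of 4 exposed arrays above every control (exact permutation p = 0.0571), 1 of them well above background.

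In young rats examined 3 months after 50 kBq, all 9 genes had higher means than controls of 4 months, and again none was called, although 3 probes were (0.0119%). The median log2 difference was 1.48 (0.37 to 2.88) against 0.30 over all probes, and before adjustment limma gave p below 0.05 for 6 genes, against 28.4% of all probes in the higher direction. The median log2 difference of other lists was 1.21 for skeletal muscle, 1.20 for lymphocytes, -4.04 for squamous epithelium, -3.33 for the parathyroid and -1.09 for thyrocytes. Of the 4 exposed arrays 2 stood apart, and these medians of other lists were not taken without them. On the exposed arrays the mean centred level ranged from -5.32 (replicate 3) to 0.89 for thyrocytes and from -0.56 to 3.33 for lymphocytes. The summed log2 level ranged from 9.98 to 12.52 in exposed rats and 9.15 to 10.16 in controls for muscle, from 2.45 to 4.70 and 3.26 to 7.32 for squamous epithelium, and from -0.80 to 8.24 and 6.37 to 6.84 for the parathyroid, and the part of these tissues was not tested. Chad was at -0.01, -1.66, 1.96 and -0.87 in the exposed rats and at -0.45, -3.23, -6.94 and -1.48 in the controls. Thus 3 of 4 controls of this age also had signal, and replicate 3 of the controls did not. Col2a1 was at -1.21, -2.99, -0.90 and -2.94 against -2.91, -4.75, -6.00 and -2.84 (log2 difference 2.11 ± 0.71, SE; adjusted p = 0.0391 with limma), so that 2 exposed arrays lay within the control range.

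Acan at 3 months was at -2.93, -4.12, -3.58 and -4.80 against -5.95, -6.51, -8.65 and -5.14 (log2 difference 2.71, adjusted p = 0.0418 with limma), and Matn1 at -3.92, -4.28, -2.80 and -4.73 against -5.24, -6.51, -8.52 and -5.32 (log2 difference 2.46, adjusted p = 0.0452 with limma). For both, every exposed array was above every control, as it was for Col9a1 and for 3.96% of all probes, but replicate 2 was the array with few spots above background. Col9a1 was at -4.74, -2.13, -4.41 and -4.83 against -5.65, -5.34, -5.98 and -4.92 (log2 difference 1.44 ± 0.35, SE; adjusted p = 0.0221 with limma), and its single high value was on that array. The other Col9a1 probes also had every exposed array above every control (exact permutation p = 0.0286 for each). Their log2 differences were 2.63 for A_64_P074649 and 2.33 for A_43_P11136 (limma adjusted p = 0.0241 and 0.0236). Values of these probes were not taken without that array, on which A_43_P11136 was not well above background.

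Without that array the differences were 0.81 for Col9a1, 2.80 for Acan and 2.58 for Matn1, still without overlap between groups (exact permutation p = 0.0571 for each, 5.98% of all probes), the median over the 9 genes was 2.17, and the smallest adjusted p from limma was 0.148. Without all 3 arrays that stood apart, the median was 1.31 (0.09 to 2.70) and the smallest adjusted p 0.476. With all arrays kept, the median within the 2 scan days with 2 arrays of each group was 1.89 and 2.01, and within slides 2.10 and 1.37. Exposed replicate 3 was among the arrays behind the 1.89 and was the exposed array behind the 2.10. Exposed replicate 2 was among those behind the 2.01. Only the slide value of 1.37 held none of the arrays that stood apart, and the scan-day medians were not taken without them. At an adjusted p below 0.05 limma called 4 genes over all arrays (Col9a1, Col2a1, Acan and Matn1), against 13.7% of all probes higher. Leaving out replicate 1 or replicate 4 in place of replicate 2 put Col9a1 past both thresholds (log2 difference 1.68 and 1.71, limma adjusted p = 0.00156 and 0.00213), and it was not past them without replicate 2, the array with few spots above background.

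At 6 months after 50 kBq the young rats were at the low end of the range. The mean level was between -0.80 and -0.61 on all 4 arrays, 1 of 9 genes was above the controls of 7 months, the median log2 difference was -0.52 (-1.03 to 0.52), and no gene was called (0 probes, 0%; 1 of 9 genes at p below 0.05 before adjustment with limma, 6.54% of all probes). Col2a1 (log2 difference -0.72) and Col9a1 (-0.77) were below every control on every array (exact permutation p = 0.0286 for each), as were 6.15% of all probes. For Col9a1 this held on its brightest probe only. On A_64_P074649 and A_43_P11136 the groups overlapped (exact permutation p = 0.514 and 0.143). Without replicate 2 of the controls, which had low thyrocyte markers, the median was -0.66, and without replicate 3 of the controls it was -0.10. No slide or scan day held both groups.

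In adult rats given 50 kBq no gene was called at 3, 6 or 9 months, with 0, 0 and 130 probes called (0, 0 and 0.514%), and before adjustment limma gave p below 0.05 for 0, 1 and 1 of the 9 genes, against 4.73, 0.794 and 21.9% of all probes. The median log2 difference was -0.16 at 3 months (4 of 9 above 0), 0.41 at 6 months (8 of 9 above 0, -0.10 to 0.74) and -0.43 at 9 months (3 of 9 above 0, -1.19 to 0.92). Within slides and scan days that held both groups the median was -0.18 and -0.50 at 3 months, 0.17 to 0.47 at 6 months, and 0.15 and -0.53 at 9 months. At 3 months the direction turned with single arrays: the median was 0.11 without exposed replicate 2, 0.03 without exposed replicate 4 and 0.24 without replicate 3 of the controls of 7 months, but -0.39 without exposed replicate 3 and -0.24 without replicate 2 of those controls. Single arrays carried most of the signal: replicate 3 at 7 months of age had a mean level of 0.57 and replicate 4 at 10 months 0.39, while the other adult arrays lay between -0.82 and -0.25. At 6 months Col9a1 was above every control on its brightest probe (log2 difference 0.74, exact permutation p = 0.0286), as were 2.60% of all probes. On A_64_P074649, 2 of 4 exposed arrays were above every control (exact permutation p = 0.0857). On A_43_P11136, 3 of 4 were below every control (log2 difference -0.625, exact permutation p = 0.0571), with neither group well above background. At 9 months Col9a2 (log2 difference -1.19) and Acan were below every control of 13 months (exact permutation p = 0.0571 for each), as were 16.4% of all probes, and Acan was well above background in neither group. With limma array weights Col9a2 and Col11a2 were called lower, and 31.0% of all probes were called in either direction.

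Among untreated rats, the signal was highest at 4 months of age. The mean level in the controls of 4 months was 1.49, 0.51, -0.99 and 1.46, and from 7 months on it ranged from -0.74 to 0.35. Relative to 4 months, 1, 0 and 2 of the 9 genes had a higher mean at 7, 10 and 13 months, with median log2 differences of -0.95, -1.03 and -1.06. Without single arrays these ranged from -1.58 to -0.52, from -1.52 to -0.57 and from -1.68 to -0.63. The highest levels were on replicates 1 and 4 of the controls of 4 months, and leaving out replicate 1 gave -0.54, -0.57 and -0.65, replicate 4 -0.52, -0.84 and -0.63, and replicate 3 -1.58, -1.52 and -1.68. No gene was called, with 1, 3 and 1301 probes called (0.00395, 0.0119 and 5.14%) and p below 0.05 before adjustment for 0, 3 and 2 of the 9 genes in limma (7.62, 3.64 and 34.0% of all probes), and these 3 comparisons share the controls of 4 months. At 10 months Acan was at least 5.16-fold lower than at 4 months (limma adjusted p = 1; exact permutation p = 0.0857) and Matn1 at least 4.82-fold lower (limma adjusted p = 1; exact permutation p = 0.0571). Col2a1 differed by -1.75 ± 0.71 and Chad by -2.23 ± 1.15 on the log2 scale (SE, neither called by limma). Within slides or scan days the median was -1.12, 0.46 and -0.33 at 7 months, -2.36 and -1.72 at 10 months and -1.25 to -0.14 at 13 months, and at 7 months it was -0.89 without replicate 2 of that group. Markers of other tissues differed with age as well. At 7, 10 and 13 months against 4 months the median log2 difference was -5.49, -2.29 and -3.43 for squamous epithelium, 0.87, 2.93 and 3.35 for C cells and -1.06, -0.46 and -1.11 for fibrous matrix, and it was -3.38 for skeletal muscle at 13 months. The summed log2 level of the squamous list ranged from 3.26 to 7.32 at 4 months and from 2.10 to 3.78, 2.78 to 6.50 and 3.74 to 3.91 at 7, 10 and 13 months. The part of these tissues in the cartilage values was not tested. Col11a2 went the other way at 13 months, at -0.17, 0.06 and -0.50 and above every control of 4 months (log2 difference 1.09, exact permutation p = 0.0286), as were 21.5% of all probes, while Acan was below every one of them (at least 4.61-fold, limma adjusted p = 0.103; exact permutation p = 0.0571), as were 12.8%. With limma array weights Col11a2 was called higher at 13 months, with 35.6% of all probes called in either direction.

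Whether the 50 kBq difference of young rats at 9 months was itself different from other 50 kBq differences was tested with interaction terms in the same limma fit. Against the 3-month difference the median of the 9 genes was 0.02, with 6 above 0 and none called (0%; 0 genes before adjustment, 17.4% of all probes). This median took either sign: it was -0.30 without the array with few spots above background, 0.46 without the 2 arrays with low thyrocyte markers and 0.29 without all 3, and 8 of 28 alternatives gave the other sign. Against the 9-month difference of adult rats all 9 genes were above 0, with a median of 2.55 (0.04 to 3.64) and a smallest adjusted p of 0.182, so none was called. Before adjustment limma gave p below 0.05 for 6 of the 9 genes, against 8.04% of all probes in the higher direction. With limma array weights 3 genes (Col9a2, Col11a2 and Matn1) were called, with 23.5% of all probes.

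The genes outside the 10 whose signal most resembled the mean of the cartilage matrix genes over the 49 arrays were Hapln1 (r = 0.944), Cnmd (0.937), Serpina1 (0.923), Clec3a (0.905), Scrg1 (0.852), Itga10 (0.835), Frzb (0.822), Mug1l1 (0.810), Mug1 (0.806) and Alx1 (0.774), out of 13204 genes ranked by Pearson's r. Spearman's rho was lower, at 0.547 for Hapln1, 0.713 for Cnmd, 0.599 for Serpina1 and 0.473 for Clec3a, and for these genes the few high arrays weigh most in r. Hapln1 encodes the link protein that ties aggrecan to hyaluronan, Cnmd encodes chondromodulin of avascular cartilage, and Itga10 encodes a collagen-binding integrin subunit of chondrocytes. Hapln1 was well above background on 9 arrays and Clec3a on 7, all among the 10 that showed Acan. In all, 9 genes had r above 0.8 and 0 below -0.8, and the lowest were Snx11 (-0.680), Mpzl2 (-0.646) and Rnf26 (-0.635). Without the 3 arrays that stood apart, r was 0.937 for Hapln1, 0.929 for Cnmd and 0.915 for Serpina1.

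**Figure D5:**
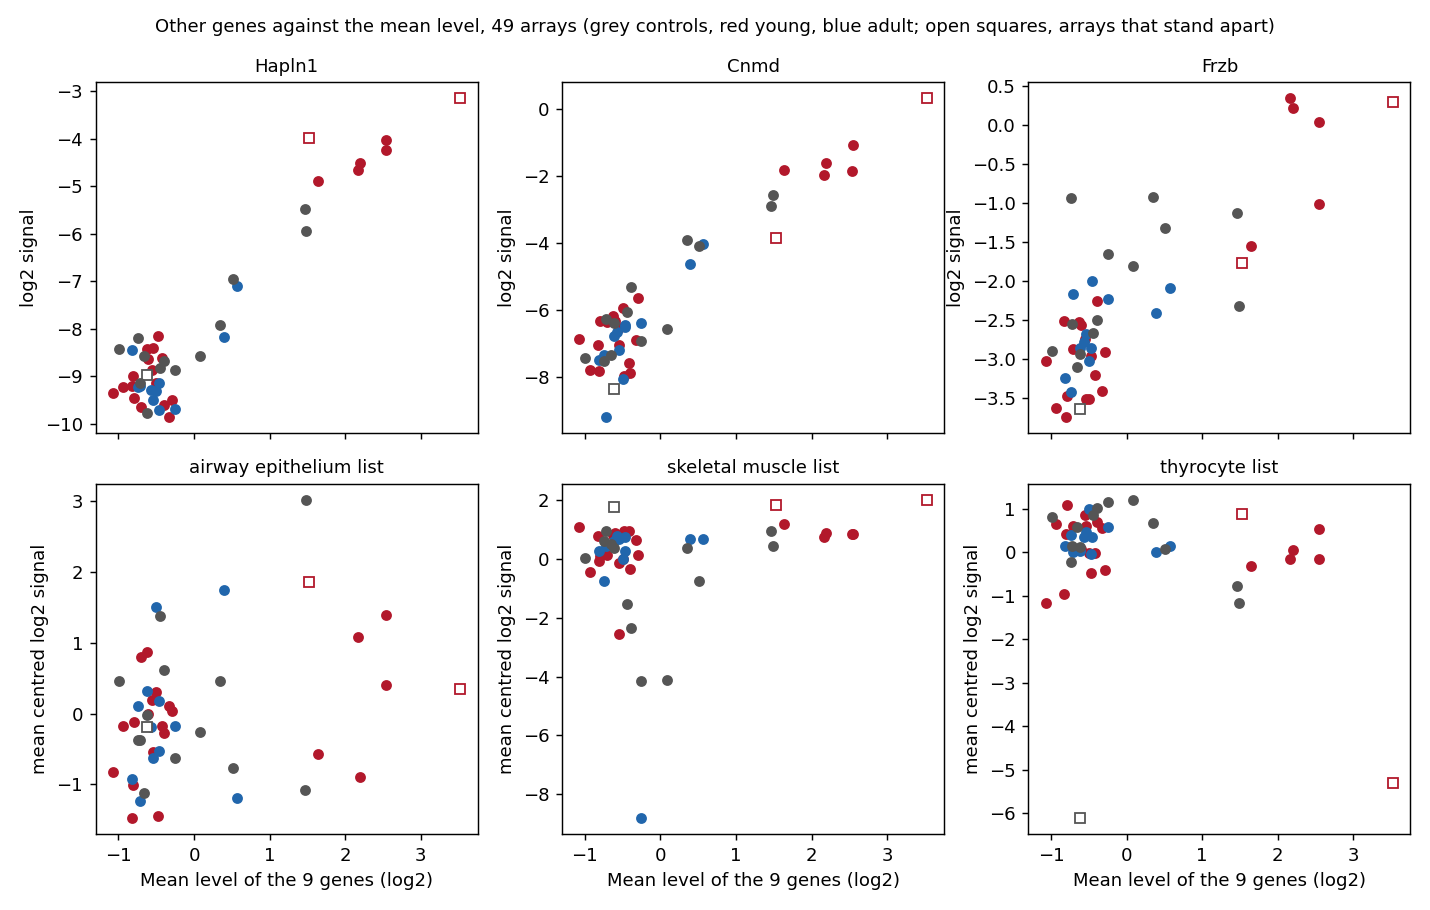
Log2 signal of Hapln1, Cnmd and Frzb (upper panels) and mean centred log2 signal of the airway epithelium, skeletal muscle and thyrocyte lists (lower panels) against the mean level of the 9 cartilage matrix genes, 1 point per array, with controls grey, young rats red, adult rats blue and open squares for the 3 arrays that stood apart. Hapln1 (r = 0.944) and Cnmd (r = 0.937) lie close to a line, Frzb (r = 0.822) scatters more, and the airway (r = 0.306), muscle (r = 0.212) and thyrocyte (r = -0.298) lists follow the mean level weakly.

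Of the other genes of the pathway, 11 of 17 further cartilage matrix genes had a tested probe, and their mean level followed that of the 9 with r = 0.907 over 49 arrays (Spearman's rho 0.548) and r = 0.911 over 46. Not every gene of this list followed the 9. Over the 49 arrays r was 0.640 for Fmod, 0.446 for Cilp2, 0.316 for Prg4 and 0.150 for Epyc. It was 0.076 for Cilp, -0.025 for Prelp and -0.150 for Matn4. The genes of the list named next, at 50 kBq, were those with the highest r. At 9 months after 50 kBq in young rats Hapln1 was at least 4.01-fold and Clec3a at least 4.92-fold higher, each well above background on 2 exposed arrays and no control, and the log2 difference was 3.03 for Cnmd (measured on 2 of 4 controls) and 0.97 for Mia (adjusted p = 1 with limma for each), and the median of the list was 0.33. No gene of this or any other list was called in that comparison. Chondrocyte regulators (8 of 13 genes tested) had r = 0.368 with the mean level and 0.172 without the 3 arrays, genes of hypertrophic cartilage and bone (8 of 13) 0.317 and 0.083, and matrix proteases and their inhibitors (10 of 11) 0.359 and 0.197. No probe was matched to Col9a3, Col11a1, Sox9 or Col10a1. In these lists Ibsp, which encodes bone sialoprotein, was called at 3 months after 50 kBq in young rats (at least 5.33-fold higher, adjusted p = 0.00801 with limma), where 2 of 4 exposed arrays and no control were well above background. The Ibsp probe was well above background on 3 of the 49 arrays in all, the fewest that the filter allowed. It was therefore tested only because of the signal in this same group. Its highest value in that group (-4.07) was on the array with few spots above background. The fitted log2 difference was 2.41 with that array and 1.74 without it, so the bound of 5.33-fold does not hold without it. Without that array Ibsp was not called (adjusted p = 0.0695 with limma). Nor was it called without all 3 arrays (adjusted p = 0.476), with the slide or the replicate number as a block (0.0970 and 0.0185) or with the 2 groups alone (0.602), all with limma and added after seeing the data. In controls of 13 against 4 months Cilp (-2.30), Prg4 (-2.04), Adamts1 (-1.55) and Col1a1 (-1.87) were called lower, with adjusted p from 0.00301 to 0.00605 in limma over the 49 arrays, and 0 probes were called with the 2 groups alone.

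Markers of tissues next to the gland were set beside the cartilage signal on the 2 high arrays at 50 kBq and 10 months. The list of airway epithelium (12 of 16 genes tested) had a mean centred level of 1.08, 0.31, 1.40 and 0.03 in replicates 1 to 4 and of -0.37, -0.38, -0.02 and -1.13 in the controls, with the summed level per array ranging from 1.60 to 5.20 and from 1.27 to 4.56. Its median log2 difference was 0.85, and Scgb1a1, the secretory protein of airway club cells, differed by 2.35 ± 1.18 (SE, adjusted p = 1 with limma). Among the 4 exposed arrays the airway list was thus highest on the 2 that were highest in cartilage genes, as was skeletal muscle. But the airway list was at -0.90 on the high array at 500 kBq, and its highest level in the series (3.02) was in a control of 4 months. Over the 49 arrays its r was 0.306. Its part in the cartilage signal was not tested. The thyrocyte list was at -0.15, -0.01, 0.53 and -0.40 on the 4 exposed arrays and between -0.22 and 0.59 in the controls. Skeletal muscle was at 0.76, -0.01, 0.86 and 0.13, and between 0.38 and 0.96 in the controls. Squamous epithelium was at -1.68, 4.75, -1.04 and -0.35, with the high value on an array low in cartilage genes.

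Over all 49 arrays the other lists followed the cartilage genes weakly: fibrous matrix with r = 0.394, tendon and perichondrium 0.389, skeletal muscle 0.212, lymphocytes 0.027, adipocytes -0.103, squamous epithelium -0.141, parathyroid -0.258, thyrocytes -0.298 and C cells -0.339. Spearman's rho ran from -0.100 for thyrocytes to 0.287 for tendon and perichondrium, with 0.066 for the parathyroid and 0.032 for C cells. Without the 3 arrays that stood apart r was -0.220 for lymphocytes, -0.154 for the parathyroid, -0.250 for thyrocytes and -0.249 for C cells. At 9 months after 50 kBq in young rats, log2 differences were 0.15 for Col1a1 of fibrous matrix, 0.33 for Krt5 of basal epithelium, -0.24 for Acta1 of skeletal muscle, -0.03 for Pth of the parathyroid, -0.42 for Calca of C cells and -0.09 for Tg (adjusted p = 1 with limma for each). Myh7 (-7.43) and Tnnt1 (-5.90), both of slow muscle fibres, were called lower in controls of 13 against 4 months (adjusted p = 0.00617 and 0.00726 with limma).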

How the data were processed

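The authors labelled total RNA from each thyroid with Cy3 and hybridised it to 1-colour Agilent rat arrays. The deposited files hold the spot intensity after local background subtraction by Feature Extraction 10.7.3.1, not normalized between arrays, and other marks of the scanner software (0 or 1) for controls, saturation, outliers and spots well above background. A further deposited table of the authors' own fold changes was not used. Here log2 of the processed intensity minus each array's 75th percentile was taken, control and outlier spots were left out, and spots of a probe were averaged. Tests used limma 3.58.1 in R 4.3.3 with 1 mean per group. No spot was saturated (0 of the probes used). Signal over background limits precision for dim probes, and the number of arrays limits all tests. RefSeq symbols and promoters came from GRCr8 tables. Named genes were every member, the 10 most and 3 least similar genes, called list genes and 12 fixed list genes. Mia, the further cartilage matrix genes given only with r, and Pax8 were named outside this rule. The genes and lists were chosen with earlier results of these data known.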

Additional observations from a re-analysis of the deposited data

Results flagged for a closer look

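A highest or lowest array far from the others of its group was found in 10 of 100 sets of 4 arrays examined (9 genes and their mean level). Chance gives about 5% for independent sets. These sets share arrays, and the mean level is made of the same genes, so no excess is read from the 10. Replicate 3 at 500 kBq accounted for 5 of them: Col2a1 was at -2.327 (others -5.757 to -5.608), Acan at -4.161 (-8.966 to -8.324), Matn1 at -4.237 (-8.495 to -7.928), Comp at -1.470 (-4.240 to -4.025) and the mean level at 2.198 (-0.553 to -0.417). Col9a1 was at -2.131 on replicate 2 of the young rats 3 months after 50 kBq, the array with few spots above background (others -4.832 to -4.411). The mean level was 0.392 on replicate 4 of the adults at 10 months of age (others -0.619 to -0.469), and Cytl1 was at -1.255 on replicate 3 of the adults at 7 months (others -1.880 to -1.786). In young rats 6 months after 50 kBq, Col2a1 was low on replicate 4, at -6.064 (others -5.725 to -5.677), and Cytl1 was low on replicate 3, at -2.223 (others -1.760 to -1.689).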

How the results depend on the processing

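The median difference of the 9 genes at 9 months after 50 kBq in young rats was above 0 under all 23 alternatives (0.79 to 2.09). None of these left out replicates 1 and 3 together, so they cannot show the direction without both high arrays. No gene was called in any comparison except with limma array weights, at an adjusted p below 0.05 and without single arrays. With array weights Col9a2 (-1.33, limma adjusted p = 0.00689) and Col11a2 (-1.22, limma adjusted p = 5.9e-05) were called lower in adults at 9 months. Of all probes, 31.0% were called there in either direction. Col11a2 (1.23, limma adjusted p = 0.000911) was called in controls of 13 against 4 months (1 gene, 35.6% of probes in either direction). In the young against adult difference 3 genes were called (Col9a2, Col11a2 and Matn1, 23.5% of probes in either direction). At an adjusted p below 0.05, 4 genes were called at 3 months in young rats (13.7% of probes higher). Without single arrays 0 to 1 gene was called in that comparison. In 42 pairs of equal replicate number the deviations correlated from -0.518 to 0.491, 14 above 0.1, so numbers were not taken as pairs, and in 11 the array was most like its own number. Only young rats at 6 months had all pairs above 0.1. With the replicate block 0 genes were called, and the probes called were 0 in young rats at 3 months, 9 in adults at 9 months and 0, 0 and 776 in controls of 7, 10 and 13 against 4 months.

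Medians that moved by more than the spread between arrays were, in young rats, -0.23 and -0.21 at 0.5 and 5 kBq with the slide block, -0.22 at 0.5 kBq with the stricter filter (7 genes), and -0.26 at 5 kBq with normexp. In adults they were 0 (quantile) and -0.81 (normexp) at 9 months and -0.78 (array weights) at 3 months. In controls of 13 months it was 0 (-0.002, normexp). For young against adult they were 1.67 (normexp) and 1.32 (strict filter). Without single arrays the medians ranged from -0.31 to 0.10 at 0.5 kBq, -0.73 to -0.10 in young rats at 6 months and -0.74 to -0.31 in adults at 9 months. On its brightest probe Cytl1 at 3 months in young rats turned to -0.084 with quantile normalization. It ranged from -0.287 (without replicate 3) to 1.166 (without replicate 2) without single arrays. The cause was not tested. On its other probe, A_44_P898195, the log2 difference there was 1.685 (limma adjusted p = 0.0265, exact permutation p = 0.0286). Every exposed array was above every control on that probe, as for 3.96% of all probes. Its values were not taken without single arrays.

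Counts of all probes called depended on the setting. With quantile normalization they were 5 in adults at 3 months, 6 in controls of 7 against 4 months and 1 for young against adult. With normexp they were 13 in adults at 9 months and 0 and 496 in controls of 7 and 13 months. With no filter they were 5 in young rats at 3 months and 9 in adults at 9 months, and with the strict filter 2 in controls of 7 months. With the slide block they were 0 and 0 in young rats at 9 and 3 months after 50 kBq, 7 and 309 in adults at 3 and 9 months, and 4, 0 and 3235 in controls of 7, 10 and 13 months, and with the scan date block 3 in adults at 9 months and 0, 0 and 2372 in those controls. With array weights they were 29, 7 and 89 at 5, 50 and 500 kBq, 0 and 326 in young rats at 3 and 6 months, 521 and 7856 in adults at 3 and 9 months, 111, 11 and 9008 in those controls, and 5951 for young against adult. With probes averaged they were 1, 1 and 0 at 5 kBq, 50 kBq and in controls of 10 months. At an adjusted p below 0.05 they were 4279 in young rats at 3 months, 1146 in adults at 9 months and 2 and 4473 in controls of 7 and 13 months. With 2 groups alone they were 1 at each of 0.5, 5, 50 and 500 kBq, 0 in young rats at 3 months, 0 in adults at 9 months and 0, 0 and 0 in those controls, and with the 19 arrays of 10 months alone 0 and 0 at 5 and 50 kBq. Without the array with few spots above background, left out after seeing the data, they were 8 and 1109 in adults at 3 and 9 months and 5 and 4013 in controls of 7 and 13 months. Without all 3 arrays they were 0 and 6 in young rats at 3 and 6 months, 9 and 2246 in adults at 3 and 9 months, 7 and 5520 in those controls, and 564 for young against adult. Without single arrays they ranged from 0 to 3 at 0.5, 5 and 50 kBq, 0 to 4266 and 0 to 2 in young rats at 3 and 6 months, 0 to 2 and 0 to 888 in adults at 3 and 9 months, 0 to 12, 0 to 3 and 9 to 2069 in controls of 7, 10 and 13 months, and 0 to 4 for young against adult.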
